A study of Mus musculus with 12 samples.

Results

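Nuclear receptor genes in mouse liver were examined for LSD1 binding and for the histone mark H3K4me2. The members were 40 named receptor genes of 21853 protein-coding genes in the annotation. They were sorted by textbook expression into 11 liver metabolic receptors, 8 broadly expressed receptors, 3 inducible receptors and 18 receptors of other tissues. For each gene, the region was the gene body and 20 kb on either side, and the promoter was 1 kb on either side of any transcription start site (TSS) of a protein-coding transcript.

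The data were 3 lists of ChIP-seq peaks, an assay that sequences DNA pulled down with an antibody. LSD1, a histone demethylase that removes methyl groups from H3K4 and H3K9, was profiled in the liver of wild-type C57BL/6 mice. H3K4me2, the dimethylated form of lysine 4 on histone H3 found at active or poised promoters and enhancers, was profiled in the liver of C57BL/6 control mice given GFP and of hepatocyte LSD1-knockout mice (LSD1-LKO). Each list joined the peaks of 2 ChIP libraries, and the 6 ChIP libraries and their control libraries made 12 samples. By the study's methods, both H3K4me2 groups were adult mice with loxP-flanked Lsd1 alleles that received an AAV8 virus. The virus carried GFP in controls and Cre in LSD1-LKO, in each case behind the thyroxine-binding globulin promoter, which is active in hepatocytes, so the knockout was directed to hepatocytes and not to the other liver cells. LSD1 and H3K4me2 thus came from different groups of mice, and the study's general protocol for LSD1-LKO and control mice used a high-fat diet, although its ChIP-seq paragraph does not name the diet.

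Nuclear receptors are transcription factors, many of which are switched by small lipophilic ligands such as bile acids, fatty acids, oxysterols and steroid or thyroid hormones. Most bind DNA as dimers, often with a retinoid X receptor, and exchange corepressors for coactivators when ligand binds. In the liver they set bile acid, lipid and glucose metabolism and the clearance of foreign compounds.

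The LSD1 list held 14584 peaks, the control H3K4me2 list 43891 and the LSD1-LKO H3K4me2 list 50675. Peaks of the first-listed library were narrower than those of the second-listed library in all 3 lists, with medians of 417 against 552 bp, 648 against 1161 bp and 565 against 1240 bp. The control peaks covered 38915804 bp and the LSD1-LKO peaks 38033925 bp, so the longer LSD1-LKO list did not cover more of the genome. The lists held no reads, depth was unknown, and 2 libraries per list gave no value per animal, so every comparison is a description without a test. In whole liver, fewer cells with a mark and less mark per cell cannot be told apart. Promoter H3K4me2 was listed in both groups for 5 of 7 hepatocyte markers and in LSD1-LKO also for Alb and Cps1, while 0 of 5 Kupffer cell markers and 0 of 5 lymphoid markers had it in either list.

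The sequence under LSD1 promoter peaks is shown for 6 receptor genes, to let their base composition be compared. Each is 200 bp from the middle of the bases that both LSD1 libraries called, read from GRCm38 on the strand of the gene, with CpG dinucleotides in capitals. Of 16 promoter windows searched, these 6 held no annotated exon of RefSeq and no untranslated exon of GENCODE, so windows on first exons are not among them. Nr0b2, chr4:133552858-133553057, plus strand. Rarg, chr15:102247339-102247538, minus strand. Ppard, chr17:28233182-28233381, plus strand. Nr1h4, chr10:89533794-89533993, minus strand. Nr5a2, chr1:136959629-136959828, minus strand. Nr1h3, chr2:91195199-91195398, minus strand.
Nr0b2: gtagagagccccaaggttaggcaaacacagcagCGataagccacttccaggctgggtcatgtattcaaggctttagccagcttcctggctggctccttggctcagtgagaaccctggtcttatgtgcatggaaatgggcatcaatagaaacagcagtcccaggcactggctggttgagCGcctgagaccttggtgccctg
Rarg: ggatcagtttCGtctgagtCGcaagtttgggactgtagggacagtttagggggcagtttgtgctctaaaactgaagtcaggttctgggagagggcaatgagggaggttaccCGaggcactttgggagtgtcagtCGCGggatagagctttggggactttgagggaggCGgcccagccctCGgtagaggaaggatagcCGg
Ppard: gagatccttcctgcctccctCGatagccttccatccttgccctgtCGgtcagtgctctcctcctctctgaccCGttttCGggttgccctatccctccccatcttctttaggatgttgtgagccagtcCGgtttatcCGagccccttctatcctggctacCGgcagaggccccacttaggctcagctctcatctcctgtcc
Nr1h4: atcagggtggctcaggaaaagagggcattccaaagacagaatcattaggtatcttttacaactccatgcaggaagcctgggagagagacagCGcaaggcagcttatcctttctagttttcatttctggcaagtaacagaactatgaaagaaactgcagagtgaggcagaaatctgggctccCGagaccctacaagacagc
Nr5a2: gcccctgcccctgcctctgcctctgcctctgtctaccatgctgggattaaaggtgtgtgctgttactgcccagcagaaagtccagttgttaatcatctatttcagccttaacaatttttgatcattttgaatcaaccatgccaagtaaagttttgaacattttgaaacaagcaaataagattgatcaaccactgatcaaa
Nr1h3: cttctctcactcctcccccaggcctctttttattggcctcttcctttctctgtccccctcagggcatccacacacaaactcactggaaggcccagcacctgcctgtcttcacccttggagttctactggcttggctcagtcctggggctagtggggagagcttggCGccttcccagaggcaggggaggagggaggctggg

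The printed windows of liver metabolic receptors held 2 CpGs in Nr0b2, 2 in Nr1h4, 0 in Nr5a2 and 1 in Nr1h3, and those of Ppard and Rarg held 7 and 8. Over all 10 LSD1 promoter windows of liver metabolic receptors the range was 0 to 32 with a median of 5, and the windows of Ppara held 15 and 21. The 5 promoter windows of broadly expressed receptors held 7 to 31 with a median of 19, so the classes overlapped. Over whole regions, across all 14584 LSD1 peaks the median was 3 CpGs per window, against 3 in the 48 windows of liver metabolic receptor regions, 13 in the 19 of broadly expressed receptor regions and 2 in the 7 of other tissues. The RefSeq promoters, 250 bases before to 50 after the gene start, were also compared for the 36 members that matched the table. Their median was 8.5 CpGs for 10 liver metabolic receptors and 27 for 7 broadly expressed receptors, beside 25 for all genes with an LSD1 promoter peak and 11 for all genes without.

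The receptor half-site AGGTCA, searched on both strands, lay in 9 of the 78 LSD1 windows of receptor gene regions (11.5%) and in 14.5% of all LSD1 windows. The extended site CAAAGGTCA, which contains the half-site, lay in 1 window (1.28%, all 0.953%). The ETS-type motif CCGGAAGT lay in 1 window (1.28%, all 1.36%) and the forkhead motif TGTTTAC in 3 (3.85%, all 3.21%). None of these 4 strings occurred in the 6 printed windows.

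LSD1 peaks lay at the promoters of 15 of the 40 receptor genes (37.5%), beside 23.6% of all genes. By class they lay at 7 of 11 liver metabolic receptors (63.6%), 5 of 8 broadly expressed receptors (62.5%), 1 of 3 inducible receptors and 2 of 18 receptors of other tissues (11.1%). At a p-value of at most 0.01 from MACS, the peak caller, in both libraries, which is the threshold named in the study's methods and which 8.11% and 9.79% of listed LSD1 peaks miss in the first-listed and second-listed library, 14 members were left (all genes 21.7%), without Nr4a2. The liver metabolic share was 52.5 percentage points above that of other tissues. That gap depended on weak LSD1 peaks. With a p-value of at most 1e-05 in both libraries, 5 members were left (all genes 5.49%), 1 of 11 liver metabolic receptors and 1 of 18 of other tissues. At a q-value of at most 0.05, 7 members were left (all genes 6.59%), 2 of 11 and 1 of 18. The members also had more promoter sequence than other genes, a median of 4059 against 2080 bp, because more start sites are annotated for them. With 1 TSS per gene, 10 members kept a promoter peak (all genes 21.4%), 5 of 11 liver metabolic receptors and 0 of 18 of other tissues.

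**Figure D1:**
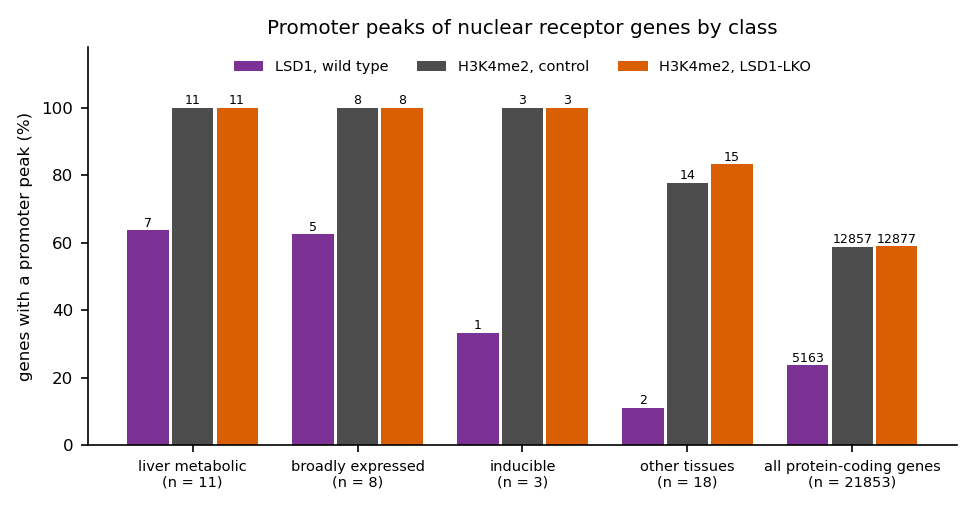
Share of genes with a promoter peak (y axis, percent) by receptor class (x axis, with the number of genes), for LSD1 in wild-type liver and H3K4me2 in control and LSD1-LKO liver, with gene counts above the bars. LSD1 reaches 7 of 11 liver metabolic and 5 of 8 broadly expressed receptors but 2 of 18 receptors of other tissues. Counted over all start sites, H3K4me2 is listed at most promoters of every class. With 1 TSS per gene, control H3K4me2 is listed at 9 of the 18 receptors of other tissues.

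Among the bile acid receptors, LSD1 was listed at both Nr1h4, which encodes the bile acid sensor FXR, and Nr0b2, which encodes SHP, the corepressor through which FXR lowers bile acid synthesis. The Nr0b2 peak, chr4:133552598-133553763, spanned the TSS. Its fold enrichment over control was 5.80 in the first-listed and 3.43 in the second-listed library, and it stood at the 88.9th percentile of all LSD1 peaks by mean −log10 p. The Nr1h4 peak, chr10:89533422-89534145, had fold enrichments of 4.23 and 3.49 and stood at percentile 75.2. It was among the 7 member promoter peaks left at a q-value of 0.05, and the Nr0b2 peak was not. Nr5a2 encodes LRH-1, an activator of bile acid synthesis genes that SHP restrains. It had 2 intronic promoter peaks near 2 annotated start sites, with the stronger at percentile 43.6.

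Among the lipid sensors, Ppara, which encodes the fatty acid receptor that drives fatty acid oxidation, had 2 LSD1 promoter peaks. The stronger lay at chr15:85735546-85736238 over an untranslated part of an exon, with fold enrichments of 4.01 and 2.65 and percentile 66.6. Nr1h3, which encodes the oxysterol receptor LXRα, had 1 peak at percentile 31.9 with fold enrichments of 2.90 and 2.55. Thrb, the main thyroid hormone receptor gene of hepatocytes, had 1 peak at percentile 39.4. Both were thus in the weaker part of the list. Nr3c1, the glucocorticoid receptor gene, had 2 promoter peaks, the stronger with fold enrichments of 3.51 and 4.58 at percentile 90.6, and it was the liver metabolic receptor left at a p-value of 1e-05.

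No LSD1 promoter peak was listed for the other 4 liver metabolic receptors. These were the xenobiotic receptors Nr1i2 (PXR) and Nr1i3 (CAR), Rora, which binds single half-sites, and Rxra, the common dimer partner. Each had LSD1 peaks elsewhere in its region.

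The 3 strongest LSD1 promoter peaks of the set lay at broadly expressed receptors. Nr2c2, the orphan receptor TR4, had fold enrichments of 5.09 and 6.41 at percentile 98.0. Rxrb, a dimer partner, followed with 4.36 and 5.82 at percentile 95.6, and its peak also lay in the promoter of the neighbouring gene Slc39a7. Nr2c1, the orphan receptor TR2, stood at percentile 91.8. Rara, a retinoic acid receptor gene, and Ppard, a fatty acid receptor gene, stood at 80.5 and 79.7. Nr1h2, Nr2f6 and Thra had no LSD1 promoter peak.

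Outside these classes LSD1 promoter peaks were few. Nr4a2, which encodes the immediate-early receptor NURR1, had a weak peak at percentile 8.38, with fold enrichments of 1.83 and 2.38, which was not left at a p-value of 0.01. Of the receptors of other tissues, Rarg had a peak at percentile 79.9, with fold enrichments of 3.96 and 4.45. Rxrg, a dimer partner gene of muscle and brain, had 1 at percentile 57.2.

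Over gene bodies and flanks, LSD1 peaks were listed for 27 of 40 receptor genes (67.5%), beside 51.4% of all genes. All 11 liver metabolic, 8 broadly expressed and 3 inducible receptors had at least 1, against 5 of 18 receptors of other tissues. Regions of the members were longer, with a median of 92697.5 bp against 57380 bp for all genes. Per 100 kb, the median was 2.31 LSD1 peaks for liver metabolic receptors, 2.50 for broadly expressed, 1.75 for inducible, 0 for other tissues and 0.38 for all genes. The regions held 78 LSD1 peaks in all, 48 of them at liver metabolic receptors and 7 at receptors of other tissues. At a p-value of 1e-05, 14 of these peaks were left.

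Rora, whose region spans 774461 bp, had 9 LSD1 peaks, none at its promoter. Ppara had 8, Nr1h4 and Thrb 6 each, Nr5a2 5 and Nr1i3 4. Nr0b2 had 3, Nr1i2, Nr3c1 and Rxra 2 each and Nr1h3 1. Per length, Nr1i3 was highest with 8.56 peaks per 100 kb, followed by Rara with 8.03 and Ppara with 7.42, while Rora had 1.16. The Nr1i3 region is short and holds other genes: 2 of its 4 peaks lay in the gene body of Tomm40l and 1 in that of Fcer1g.

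Of the 78 peaks, 18 lay at a promoter of the member itself, 7 only at a promoter of another gene and 53 at no promoter. By place, 46 lay in introns of the member, 14 upstream, 12 downstream, 5 over an untranslated part of an exon and 1 over a coding exon. The strongest peak at a liver metabolic receptor region, percentile 98.4, lay 21423 bp from the Nr0b2 TSS at the promoter of Gpatch3. The strongest that lay in a liver metabolic receptor gene was in an intron of Thrb, at percentile 93.2, with fold enrichments of 3.71 and 6.44.

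Most LSD1 peaks near receptor genes lay on H3K4me2. H3K4me2 of the control list overlapped 59 of the 78 (75.6%, all LSD1 peaks 52.5%), and that of the LSD1-LKO list 57 (73.1%, all 53.8%). At promoters, 18 of 18 overlapped the control list and 17 of 18 the LSD1-LKO list, beside 91.7% and 90.2% of all LSD1 promoter peaks. Among the 53 at no promoter, 66.0% overlapped the control list and 64.2% the LSD1-LKO list, beside 31.4% and 34.2% of all LSD1 peaks outside promoters. For the 35 such peaks of liver metabolic receptors the shares were 62.9% and 57.1%. The shares over all LSD1 peaks, and over all outside promoters, come from the whole list. They are not limited to gene bodies and 20 kb around, as the member peaks are.

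**Figure D2:**
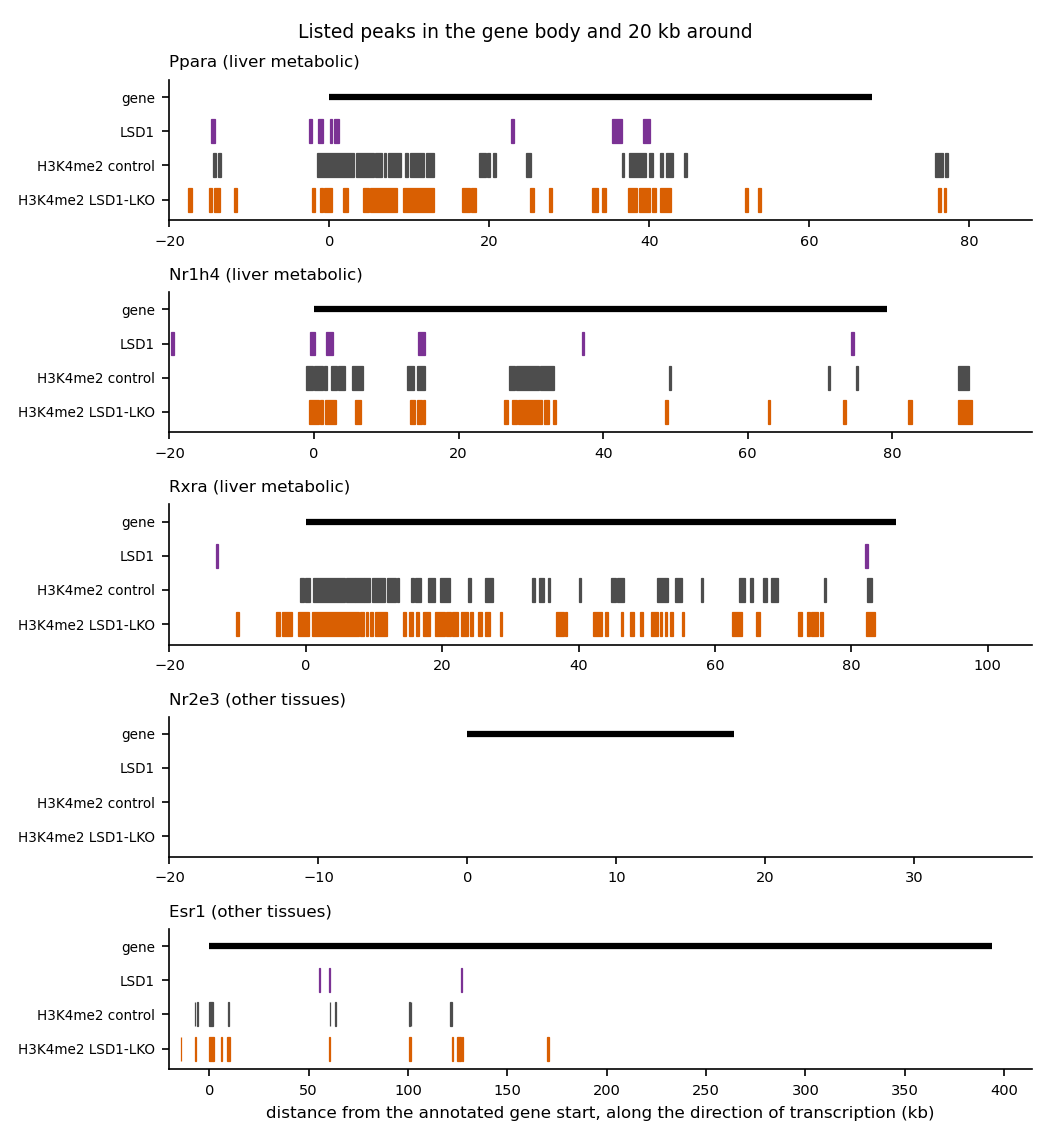
Listed peaks of LSD1, control H3K4me2 and LSD1-LKO H3K4me2 (rows) along 5 receptor genes (black bars), by distance from the annotated gene start in kb. Ppara, Nr1h4 and Rxra carry long runs of H3K4me2 in both lists, Esr1 has few peaks for its length, and Nr2e3, the photoreceptor-specific receptor gene, has none.

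H3K4me2 was listed at 36 of 40 receptor promoters in control liver (90.0%, all genes 58.8%) and at 37 in LSD1-LKO liver (92.5%, all genes 58.9%). All liver metabolic, broadly expressed and inducible receptors were marked in both lists, as were 14 of 18 receptors of other tissues. No member was marked in the control list only, beside 3.09% of all genes. Pgr, the progesterone receptor gene, was marked in the LSD1-LKO list only, beside 3.18% of all genes. Its peak was weak, at percentiles 22.9 and 4.996 of the list entries by each library, with fold enrichments of 2.59 and 2.51. Esr2, Nr2e1 and Nr2e3, receptor genes of gonadal and neural tissues and of the retina, were marked in neither list, and Nr2e3 had no peak of any list in its region. Among the 37 members marked in either list, 40.5% had an LSD1 promoter peak, beside 37.6% of all marked genes. Read against marked genes, the members' share of LSD1 promoters was therefore close to the background. By class, it was 7 of 11 marked liver metabolic receptors and 2 of 15 marked receptors of other tissues. With 1 TSS per gene, control H3K4me2 was listed for 29 members (all genes 55.7%). These included 10 of 11 liver metabolic receptors and 9 of 18 receptors of other tissues.

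The length of promoter under H3K4me2 peaks differed little between the lists across the set. Over the 37 marked members the median difference, LSD1-LKO minus control, was −30 bp, with 20 lower and 17 higher, beside −111 bp for all marked genes, of which 60.1% were lower and 39.4% higher. The intervals of the second-listed library gave a median of +63 bp for the members and +13 bp for all genes, so the sign depended on the library. By class, 5 liver metabolic receptors were lower and 6 higher in the first-listed intervals, 6 and 2 of the broadly expressed, 2 and 1 of the inducible, and 7 and 8 of those of other tissues. In the second-listed intervals the broadly expressed receptors turned to 2 lower, 5 higher and 1 equal and the inducible to 1 and 2, while the liver metabolic receptors were 5 lower, 4 higher and 2 equal and those of other tissues 7 and 8. Lower in the intervals of both libraries were 9 of 37, beside 30.0% of all marked genes, and higher in both were 10, beside 25.3%.

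**Figure D3:**
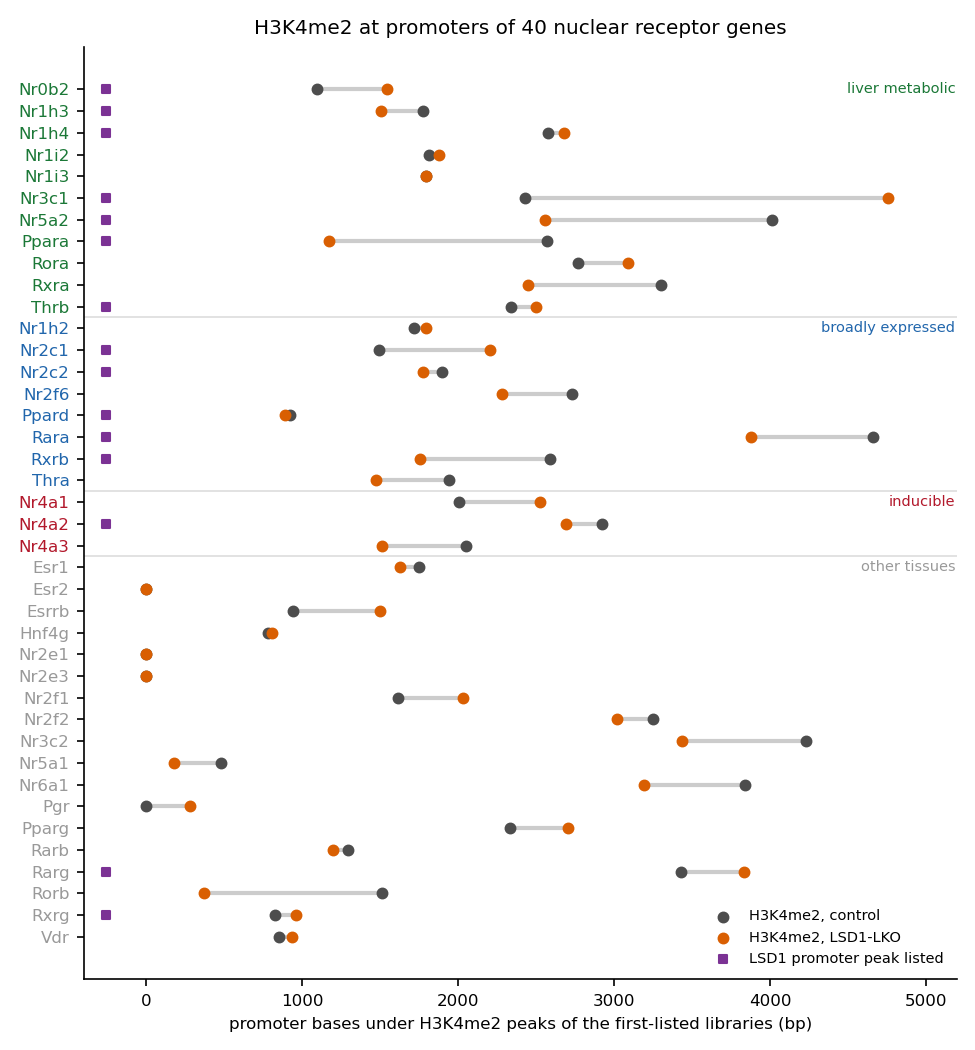
Bases of each receptor promoter under H3K4me2 peaks of the first-listed libraries (x axis, bp) in control and LSD1-LKO liver, by class, with squares for genes with an LSD1 promoter peak. Nr3c1 has the widest rise (2426 to 4759 bp), and Nr5a2 (4015 to 2556 bp) and Ppara (2568 to 1170 bp) the widest falls.

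The receptors with shorter H3K4me2 in LSD1-LKO in both libraries were Nr1i3, Nr5a2, Rxra, Rxrb, Nr4a2, Esr1, Nr2f2, Nr5a1 and Rarb. The Nr5a2 promoters had 4015 and 4026 bp under peaks of the first-listed and second-listed control libraries and 2556 and 3295 bp in LSD1-LKO. Rxra had 3298 and 4778 bp in control against 2448 and 2528 bp in LSD1-LKO. Nr1i3 had 1792 and 1923 bp in control against 1791 and 1061 bp in LSD1-LKO, so its difference came from the second-listed library. The 4 values of Rxrb were 2590 and 2584 bp in control, which is the whole promoter or nearly so, and 1755 and 1732 bp in LSD1-LKO. Both control values were above both LSD1-LKO values in 5 of 37 members, Nr5a2, Rxra, Rxrb, Nr5a1 and, by 1 bp, Nr1i3, beside 17.3% of all marked genes.

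The receptors with longer H3K4me2 in LSD1-LKO in both libraries were Nr1h4, Nr3c1, Rora, Nr2c1, Nr4a1, Esrrb, Hnf4g, Pgr, Rarg and Vdr. Nr3c1 had 2426 and 4680 bp in control against 4759 and 4812 bp in LSD1-LKO, and its large first-listed difference was 132 bp in the second-listed library. Nr2c1 had 1489 and 1443 bp in control against 2202 and 2397 bp in LSD1-LKO. Nr1h4 had 2574 and 2376 bp in control against 2678 and 3503 bp in LSD1-LKO. Both control values were below both LSD1-LKO values in 5 members, these 3 with Nr4a1 and Pgr, beside 14.6% of all marked genes. Esrrb, an orphan receptor gene of pluripotent cells, had 941 and 1674 bp in control against 1496 and 1867 bp in LSD1-LKO, and these ranges overlapped.

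For the other members the libraries disagreed or a difference was 0. Ppara had 2568 bp, its whole promoter, under peaks of both control libraries, and 1170 and 2568 bp in LSD1-LKO. The stronger of its LSD1 promoter peaks was fully covered, 693 of 693 bp, in both control libraries and in the second-listed LSD1-LKO library, and by 0 bp in the first-listed LSD1-LKO library. Rorb, a receptor gene of retina and brain, had 1511 and 1340 bp in control against 366 and 1592 bp in LSD1-LKO. Nr0b2 had 1095 and 1793 bp in control against 1543 and 1642 bp in LSD1-LKO, and Nr1h3 had 1777 and 1963 bp against 1504 and 2267 bp. Nr1i2 had 1812 and 2001 bp in control against 1878 and 1900 bp in LSD1-LKO, and Thrb had 2341 and 2636 bp against 2498 and 2636 bp. In each of these the groups overlapped or, for Ppara, shared their extreme value. Rora, higher in both, had 2768 and 3295 bp against 3087 and 3691 bp, with overlap as well.

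Peak rank was compared as the percentile of each gene's strongest promoter peak among all entries of its list, by the −log10 p of each library. A second-listed peak counts once for each first-listed peak it is paired with. The control list has 43891 entries for 35149 second-listed peaks, and the LSD1-LKO list 50675 for 38292. A percentile depends on the other peaks of a list, and the LSD1-LKO list is longer than the control list, so the fold enrichment of the same peaks is set beside it. Of 36 members marked in both lists, 8 had both control percentiles above both LSD1-LKO percentiles, beside 16.7% of all genes marked in both, and 7 had both below, beside 16.5%. Of the 8, 5 were broadly expressed receptors (Nr2f6, Ppard, Rara, Rxrb and Thra) and the others were Nr2f2, Nr3c2 and Rarb. Of the 7, 4 were liver metabolic receptors (Nr1h3, Nr3c1, Ppara and Rora), with Nr2c1, Esrrb and Rarg. Fold enrichment was lower in LSD1-LKO in both libraries for all 8 of the first group. It was higher in both for 4 of the 7 (Nr1h3, Nr3c1, Nr2c1 and Esrrb), and for Ppara, Rora and Rarg it was lower in 1 library. Over all 36 it was lower in both libraries for 19, higher in both for 5 and mixed for 12. The same counts over all genes were not made, so these are not read as a change particular to receptors. Fold enrichment and rank did not run on the same scale in both groups. Rarg had a higher first-listed percentile in LSD1-LKO than in control (90.6 against 89.8) but a lower fold enrichment (5.17 against 5.97).

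**Figure D4:**
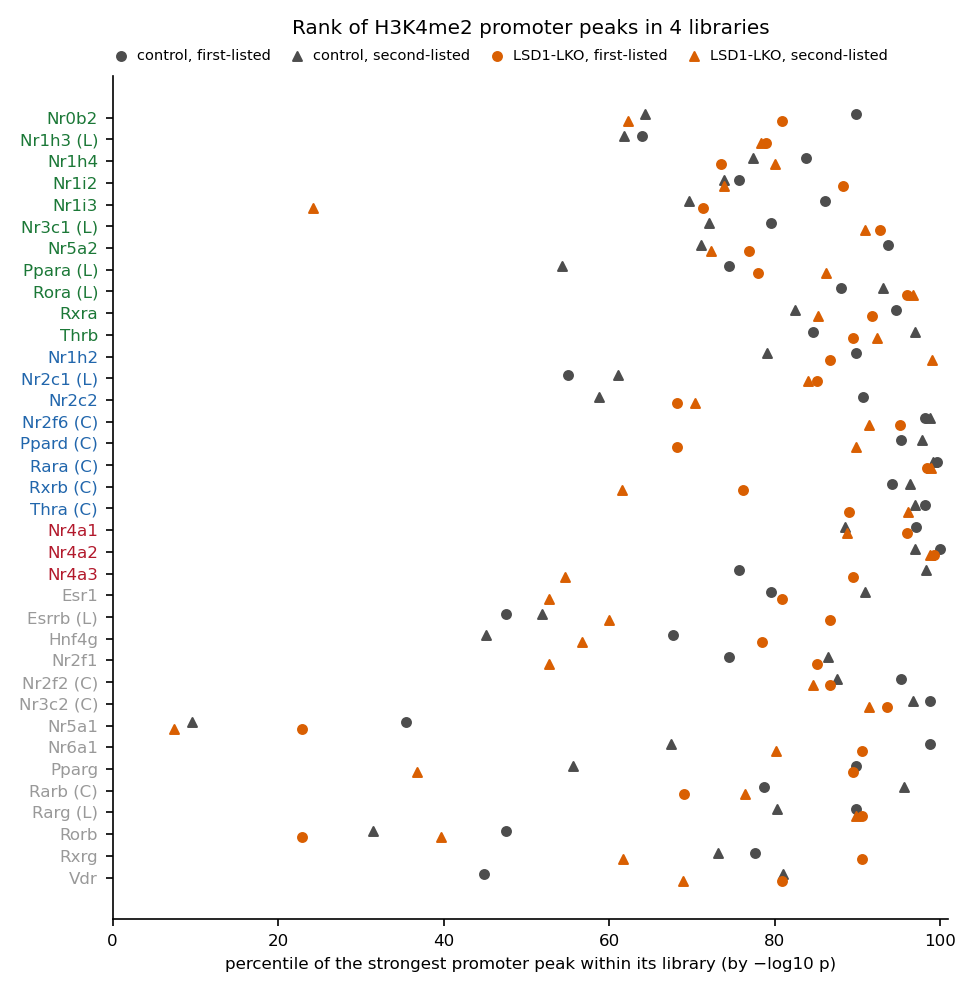
Percentile of the strongest H3K4me2 promoter peak among all entries of its list, by the −log10 p of each library (x axis), for 36 receptor genes. Circles are the first-listed and triangles the second-listed libraries of control (grey) and LSD1-LKO (orange) liver. Names are green for liver metabolic, blue for broadly expressed, red for inducible and grey for other tissues. Genes marked (C) have both control values above both LSD1-LKO values, 8 in all, and those marked (L) the reverse, 7 in all.

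No liver metabolic receptor had both control percentiles above both LSD1-LKO percentiles, beside 16.7% of all genes marked in both, a share that so small a class may miss. By fold enrichment, Nr0b2 and Nr1i3 did have both control values above both LSD1-LKO values, as did Rxrb, Nr3c2, Nr6a1 and Pparg of other classes. No member of any class had the reverse, and the same counts over all genes were not made. Nr1h3 stood at percentiles 63.9 and 61.8 in control and at 78.9 and 78.4 in LSD1-LKO. Nr3c1 stood at 79.5 and 72.0 in control and at 92.8 and 90.9 in LSD1-LKO. In both genes the gap between the groups was wider than the gap within either group, and in Nr3c1 promoter length differed in the same direction. Ppara stood at 74.5 and 54.3 in control and at 78.0 and 86.2 in LSD1-LKO, although its first-listed peaks covered less promoter and had a fold enrichment of 4.43 in control against 4.22 in LSD1-LKO. Rxrb stood at 94.2 and 96.4 in control and at 76.2 and 61.5 in LSD1-LKO, and Ppard at 95.3 and 97.8 in control and at 68.2 and 89.9 in LSD1-LKO. Rxrb was thus lower in LSD1-LKO on both measures. Nr1i3 stood at 86.1 and 69.6 in control and at 71.4 and 24.2 in LSD1-LKO, with overlap.

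Over whole regions, H3K4me2 was densest by class median at liver metabolic and broadly expressed receptors. Region lengths and shares are those of first-listed intervals, and these sums were not made for the second-listed library. Members varied within classes: Nr2f2, of other tissues, had 23.5% of its region under control peaks, and Rora, liver metabolic, had 2.52%. The median share of the region under peaks was 11.97% in control and 12.6% in LSD1-LKO for liver metabolic receptors, 11.2% and 9.36% for broadly expressed, 8.91% and 6.32% for inducible and 1.11% and 1.15% for other tissues, beside 2.85% and 2.72% for all genes. Of the 39 members with region peaks, 23 had less covered length in LSD1-LKO and 16 more, beside 56.3% and 43.7% of all genes with region peaks. Of the 11 liver metabolic receptors, 7 had less and 4 more, with a median difference of −261 bp. Their summed length was 172644 bp in control against 180568 bp in LSD1-LKO, and the higher sum came from Rora (+7424 bp), Rxra (+6481 bp), Nr1i2 (+3923 bp) and Nr0b2 (+1718 bp).

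**Figure D5:**
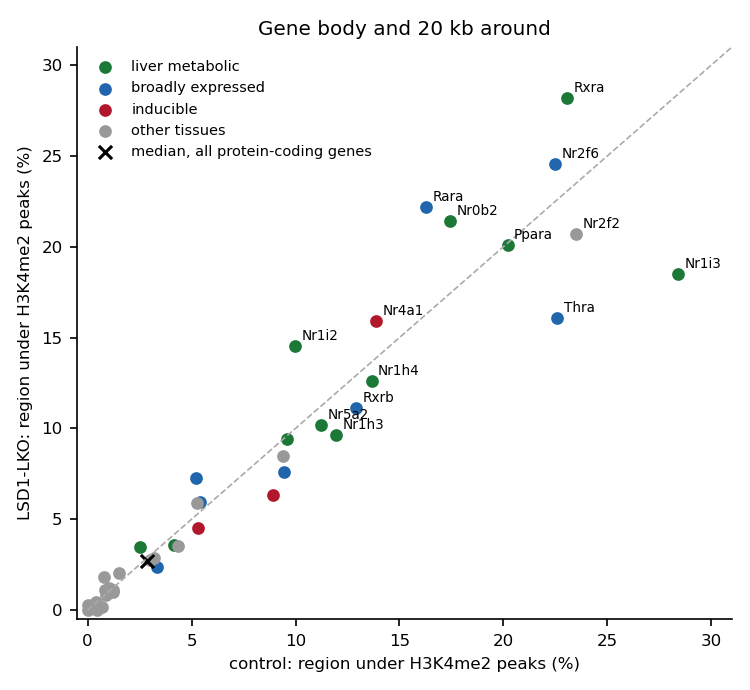
Share of each receptor gene region under H3K4me2 peaks of the first-listed libraries (percent) in control (x axis) and LSD1-LKO liver (y axis), coloured by class, with the median of all protein-coding genes as a cross and equality as a dashed line. Rxra lies above the line (23.1% and 28.2%), and Nr1i3 below it (28.4% and 18.5%).

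Rxra had the most covered length, 29181 bp in 31 control peaks and 35662 bp in 40 LSD1-LKO peaks, although its promoters were covered less in LSD1-LKO. Rora had 30 control peaks over 19519 bp and 42 LSD1-LKO peaks over 26943 bp. Nr1i2 had 8642 bp in control against 12565 bp in LSD1-LKO, and Nr1i3 had 13272 bp and 8637 bp. In the first-listed intervals the regions of the 2 xenobiotic receptor genes thus differed in opposite directions, but the Nr1i3 region holds other genes. At the Apoa2 promoter in its flank, first-listed control peaks of 665 and 1697 bp stood against 1 of 379 bp in LSD1-LKO. The second-listed control intervals there were chr1:171222704-171224936 and chr1:171225112-171226951. Those of LSD1-LKO were chr1:171222661-171224923 and chr1:171225813-171227093, so the contrast was smaller in the second-listed library. Over the Nr1i3 promoter and introns, first-listed peaks were 1385 and 2983 bp wide in control and 1920 and 715 bp in LSD1-LKO. Ppara had 21793 bp in 22 control peaks and 21683 bp in 25 LSD1-LKO peaks, nearly the same length.

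H3K4me2 peaks of the member regions that overlapped no peak of the other list were 108 of 350 in control (30.9%, all peaks 31.9%) and 152 of 413 in LSD1-LKO (36.8%, all peaks 35.9%). For liver metabolic receptors they were 69 of 193 in control (35.8%) and 99 of 231 in LSD1-LKO (42.9%), with 27 of the 99 at Rora and 21 at Rxra. For broadly expressed receptors they were 12 of 62 (19.4%) and 18 of 74 (24.3%).

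At LSD1 peaks of the member regions, H3K4me2 was followed in each of the 4 libraries. It lay on 4 peaks in both control libraries and neither LSD1-LKO library, beside 4.13% of all LSD1 peaks, and on 5 in both LSD1-LKO libraries and neither control library, beside 6.59%. On 12 peaks it lay in no library, beside 34.5% of all LSD1 peaks, which are not limited to gene regions. The 4 peaks with H3K4me2 in control alone were all at liver metabolic receptors, whose regions held 48 of the 78 LSD1 peaks. The 4 were 2 in the Nr1i3 region, chr1:171204331-171204835 upstream and chr1:171222295-171222631 at the Tomm40l promoter, 1 in an intron of Thrb, chr14:17729142-17730160, and 1 in an intron of Ppara, chr15:85770351-85771535. The Thrb peak of 1019 bp had 924 and 1011 bp under control peaks and 0 bp in LSD1-LKO. The Ppara peak had 12 and 93 bp of 1185 under control peaks, a marginal overlap.

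The 5 with H3K4me2 in LSD1-LKO alone were 3 in introns of Rora, 1 in an intron of Nr3c2 and 1 in an intron of Esr1. The longest, chr9:68883327-68884353 in Rora, had 836 and 864 bp of 1027 under LSD1-LKO peaks and 0 bp in control. The other Rora peaks had 35 and 438 bp and 63 and 294 bp, and the Esr1 peak 3 and 40 bp. The lists hold only peaks called in both libraries of a group, so 0 bp means that no such peak was listed, not that the mark was absent.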

How the data were processed

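The authors mapped ChIP-seq reads to mm10 with Bowtie 2, called narrow peaks per library with MACS against control libraries, and kept peaks shared by the 2 libraries with BEDtools intersect. The controls are input by the labels and IgG by the methods. Each deposited entry pairs a first-listed with a second-listed peak. Deposited values were fold enrichment, a ratio to local background, and −log10 p-values and −log10 q-values, all from the authors' MACS runs. Names of first-listed H3K4me2 peaks carry "picard" and those of second-listed peaks do not. Another 12 columns with values of single libraries, integer scores and summit offsets, were not used.

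Groups came from the list names, which match the sample titles. Promoters were built from 54361 protein-coding starts of GENCODE mouse release 21 (GRCm38). Overlap of at least 1 bp was counted on first-listed intervals, and covered length was the union of peaks. An LSD1 percentile ranks the mean −log10 p of both libraries. Scripts used Python 3.11.15, numpy 2.4.6 and pandas 2.3.3 and were tested on simulated intervals. Named in full were the 11 liver metabolic receptors, members with an LSD1 promoter peak or with H3K4me2 in 1 list only, and the 3 largest falls and rises in promoter cover. Other members were named where a count or a value singled them out, after their values were seen. The members and lists were chosen with earlier results of these data known. No count was adjusted or tested, because the lists give no value per animal. Alternatives were wider promoters, 1 TSS per gene, stricter MACS thresholds, second-listed intervals, other overlaps, flanks of 10 and 50 kb and merged peaks.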

Additional observations from a re-analysis of the deposited data

How the results depend on the processing

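The 40 receptor genes were recounted under 47 combinations of result and setting, of which 36 stayed within 1.5 times the first count or, for differences, within the spread of the 2 libraries or the counting interval, 10 moved further and 1 turned sign. MACS thresholds had the widest effect on LSD1. The 15 members with an LSD1 promoter peak were 5 at a p-value of 1e-05 and 7 at a q-value of 0.05, the 78 LSD1 peaks of member regions 14 and 18, and the gap of 52.5 points between liver metabolic receptors and those of other tissues 3.54 and 12.6. The median difference in H3K4me2 promoter length, −30 bp, was −221.5 bp at a p-value of 1e-05, −126 bp at a q-value of 0.05, −124 bp with promoters of 2 kb on either side and −98 bp at a p-value of 0.01, and it turned to +63 bp with the second-listed library. The cause was not tested. Starts of all transcript types and the p-value of 0.01 were added after seeing the data. The counts of members with H3K4me2 promoter peaks, 36 and 37, stayed within 1.5 times under each setting. No paired analysis was possible because no replicate number is given in the lists, only shared peaks are listed and no test was made, so the planned replicate block was not run. Depth limits weak peaks in particular: a gene without a listed peak may carry signal that 1 of its libraries did not call.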

Other observations

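Coregulators, the proteins that receptors recruit to silence or activate genes, were marked throughout. LSD1 promoter peaks were listed for 9 of 16 coregulator genes (56.2%, all genes 23.6%, all H3K4me2-marked genes 37.6%), and H3K4me2 promoter peaks for 16 of 16 in both lists. Their median promoter length was 4467 bp, against 2080 bp for all genes. Among them, the LSD1 peaks of the coactivator genes Ep300, Ncoa6 and Ncoa2 stood at percentiles 84.7, 82.9 and 81.5. In the first-listed intervals, 13 coregulator promoters had less H3K4me2 length in LSD1-LKO and 2 had more, beside 60.1% and 39.4% of all marked genes. Ncoa2 had 2917 bp in control against 2411 bp in LSD1-LKO, and Tbl1x, a subunit of a corepressor complex, had 1272 and 1718 bp. The second-listed library was not examined for these genes.

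Of 27 textbook target genes of the receptors, 11 had an LSD1 promoter peak (40.7%, all genes 23.6%) and 21 an H3K4me2 promoter peak in each list (77.8%, all genes 58.8% in control and 58.9% in LSD1-LKO). The highest LSD1 percentiles were 94.7 at Pdk4, a PPARα target that restrains glucose oxidation, and 93.9 at Dio1, a thyroid hormone target. Cyp7a1, the rate-limiting enzyme gene of bile acid synthesis, had 1100 bp under control H3K4me2 and 0 bp in LSD1-LKO. Cyp4a10, a PPARα target, had 1056 and 0 bp. Cyp8b1, a further enzyme of bile acid synthesis, had 0 and 1005 bp. Pck1, a gluconeogenesis gene, had 0 and 48 bp. Both directions thus occurred among the bile acid synthesis genes, beside 3.09% of all genes with promoter marking unique to control and 3.18% with marking unique to LSD1-LKO. Lengths at these target genes are those of first-listed intervals, and the second-listed library was not examined for them.

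Of 9 nuclear receptor genes outside the 40, 2 had an LSD1 promoter peak, Esrra at percentile 73.2 and Nr1d1 at 32.6. Hnf4a, the hepatocyte identity factor, had none at its promoter and 6 in its region. Its promoter H3K4me2 length in the first-listed intervals was 2575 bp in control against 1275 bp in LSD1-LKO, and the second-listed library was not examined. Promoter H3K4me2 was listed in control and LSD1-LKO for 0 and 1 of 6 liver endothelial markers, 1 and 2 of 6 stellate cell markers and 3 and 2 of 5 cholangiocyte markers, beside 58.8% and 58.9% of all genes.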
